A study of Mus musculus with 38 samples.

Results

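The genes described here are 9 Toll-like receptor genes (Tlr1, Tlr2, Tlr3, Tlr4, Tlr6, Tlr7, Tlr8, Tlr9 and Tlr13) and Cd14, 10 of the 19937 genes that the arrays measure with a probe set of 1 symbol. They were chosen by name, with earlier results of these data known. Each has 1 probe set, so no choice between probe sets arose. Tlr5 and Tlr11 have no probe set of 1 symbol in the annotation used and were not analysed here, and Tlr12 is given once beside the others.

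Toll-like receptors are membrane proteins of innate immunity that bind microbial products and signal to NF-kB and interferon regulatory factors, mostly through the adaptor Myd88. Tlr2, which pairs with Tlr1 or Tlr6 to bind bacterial lipoproteins, and Tlr4, which binds lipopolysaccharide, sit at the cell surface, where the lipid-anchored protein Cd14 passes ligand to them. Tlr3, Tlr7, Tlr8, Tlr9 and Tlr13 bind nucleic acids in endosomes and depend on the transport protein Unc93b1 and on lysosomal proteases. Monocytes, macrophages and dendritic cells (DC) of skin use these receptors to sense bacteria, viruses and damaged tissue.

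The series measured RNA of sorted CD11b+ myeloid cells from wild-type female C57BL/6 mice aged 6 weeks on 38 Affymetrix arrays in 13 populations, with 3 arrays each and 2 for P1 after treatment. At steady state these were Ly6Chigh blood monocytes, 5 dermal populations of ear skin called P1 to P5, dermal CD11b+ DC and the CD11b+ migratory DC of the cutaneous lymph nodes (node DC). The gates separated P1 (Ly6Chigh, CD64low, without MHCII), P2 (Ly6Chigh, CD64+, MHCII+) and P3 (Ly6Clow, CD64+, MHCII+), which are CCR2+, from the CCR2-negative and Ly6C-negative macrophages P4 (without MHCII) and P5 (MHCII+), while DC were CD64-negative. P1, P2, dermal DC and node DC were also sorted 3 days after 10 µl of 0.5% 2,4-dinitrofluorobenzene (DNFB), a contact sensitiser, in acetone and olive oil, together with Ly6C+ CD64+ cells of the node, and the untreated mice received no vehicle that the labels mention. The labels call the node CD64+ cells by different names in different fields, so they are named here by their gate. Each array stands for an independent pool of mice, per the series' design text.

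Values are log2 levels, and a difference of 1 is 2-fold. Tests are from limma over all 19937 genes, "rose" and "fell" mean an adjusted p below 0.05, and every difference is given with its standard error (SE). Signal is called low where a level is below 4.02 (the 40th percentile over all arrays and all 34760 probe sets), and a fold from such a level has no exact size. Array medians lay between 4.39 and 4.65, and replicates of a population correlated at 0.931 to 0.986 across genes. Markers of other cells moved with the tissue: the mean of 10 keratinocyte genes was 4.32 to 4.47 in blood, 5.37 to 8.48 in the dermal arrays and 4.42 to 4.83 in the node arrays. The mean of 10 fibroblast genes was 4.46 to 4.51 in blood, 5.04 to 10.31 in dermis and 4.58 to 5.08 in node, with the highest array in P1. Macrophage markers (7 genes) averaged 10.11 to 10.84 in P3, P4 and P5, 8.26 to 8.61 in steady-state dermal DC, 5.22 to 5.92 in node DC and 9.36 to 10.39 in the node CD64+ cells. The conventional DC list (8 genes) averaged 7.60 to 8.71 in dermal DC, 7.64 to 8.12 in node DC and 7.42 to 8.13 in the node CD64+ cells. In sorted bulk RNA, fewer cells that express a gene and less RNA per cell cannot be told apart.

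Promoters matched 7 of the 10 genes in the RefSeq table of GRCm38.p6, each window running from 250 bases before to 50 bases after the start site. The 250 bases before the start are shown for Tlr2, which followed Cd14 across populations, and for Tlr8 and Tlr13, which varied widely. They are also shown for Tlr9, which varied less than those genes. Capitals mark matches, on either strand, to GAGGAA (the core of sites of PU.1, a factor of myeloid cells), TATAAA (the TATA box) and TGANTCA (an AP-1 site).
Tlr2, chr3:83841609-83841858, minus strand: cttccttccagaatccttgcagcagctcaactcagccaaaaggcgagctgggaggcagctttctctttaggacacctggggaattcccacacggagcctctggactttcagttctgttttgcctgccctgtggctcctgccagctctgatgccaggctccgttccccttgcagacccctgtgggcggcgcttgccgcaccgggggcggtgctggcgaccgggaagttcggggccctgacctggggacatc
Tlr8, chrX:167264330-167264579, minus strand: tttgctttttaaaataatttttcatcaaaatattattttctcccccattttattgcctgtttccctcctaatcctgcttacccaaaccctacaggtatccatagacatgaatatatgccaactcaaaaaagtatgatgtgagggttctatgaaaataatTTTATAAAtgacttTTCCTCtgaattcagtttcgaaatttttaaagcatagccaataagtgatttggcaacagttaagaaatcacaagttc
Tlr13, chrX:106143025-106143274, plus strand: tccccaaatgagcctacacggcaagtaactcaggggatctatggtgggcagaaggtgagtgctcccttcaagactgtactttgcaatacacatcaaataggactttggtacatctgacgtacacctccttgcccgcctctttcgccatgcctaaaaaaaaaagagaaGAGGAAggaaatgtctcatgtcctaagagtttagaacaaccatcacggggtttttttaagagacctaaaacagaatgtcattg
Tlr9, chr9:106222348-106222597, plus strand: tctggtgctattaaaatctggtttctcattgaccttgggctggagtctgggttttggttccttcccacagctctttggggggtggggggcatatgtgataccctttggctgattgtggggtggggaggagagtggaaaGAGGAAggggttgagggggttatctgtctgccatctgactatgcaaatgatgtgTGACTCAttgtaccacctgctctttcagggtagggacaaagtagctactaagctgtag
The GAGGAA match lay at position -77 of Tlr8, -83 of Tlr13 and -112 of Tlr9, counted from the start site, and at -23 in 1 of the windows of Tlr1. The Tlr9 window held another, 12 bases past the start and so outside the stretch shown. Of the 32851 promoters in the table, 28.3% hold this motif, so the match is common. Tlr8 also held TATAAA at -89 and, on the other strand and overlapping it, at -91, a motif found in 13.6% of promoters, and Tlr9 held TGANTCA at -58, found in 7.81%. The Tlr2 window held none of the 7 motifs searched. Each motif was searched as a fixed pattern of letters, and other forms of these sites, such as other NF-kB sequences, were not searched. In windows that are not shown, Tlr3 held the NF-kB motif (GGGA, any base, TTTCC) at -211 (0.411% of promoters), and 1 window of Tlr6 held the interferon-stimulated response element (GAAA, any pair of bases, GAAA) at -116 and -110 (3.44%), while the other Tlr6 window held TATAAA at -180, -150 and -109. The other motifs searched were the composite ETS and IRF element (GGAA, any pair of bases, GAAA, in 2.71% of promoters) and the C/EBP motif TTNNGCAAT (2.18%), which matched none of these windows. The bases before the start were 62.8% G or C in Tlr2, 50.4% in Tlr9, 44.4% in Tlr13 and 31.2% in Tlr8, a description of sequence that no array value here tests. Tlr1 and Tlr6 are neighbouring protein-coding genes, as are Tlr7 and Tlr8, with 0 protein-coding genes between them.

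Cd14 spanned more of the scale across the 13 population means than any other of these genes. Its means ran from 11.91 in P3 to 4.00 in node DC after DNFB, a difference of 7.91 whose lower end is at low signal and has no exact size, and the median gene spans 0.70. The 26 dermal arrays lay between 10.27 and 11.95, the blood monocytes at 9.14, 8.24 and 9.97, the node CD64+ cells at 6.72, 6.65 and 7.27, and the 6 node DC arrays between 3.90 and 5.06. No dermal array overlapped a blood or node array, and the order was dermis, blood, node CD64+ cells, node DC. Within dermis the order was P3, P1 after DNFB, P5, P1, P4, P2 after DNFB, P2, DC and DC after DNFB, and of these neighbours P5 and P1, P4 and P2 after DNFB, and P2 after DNFB and P2 differed by less than their pooled SD.

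**Figure D1:**
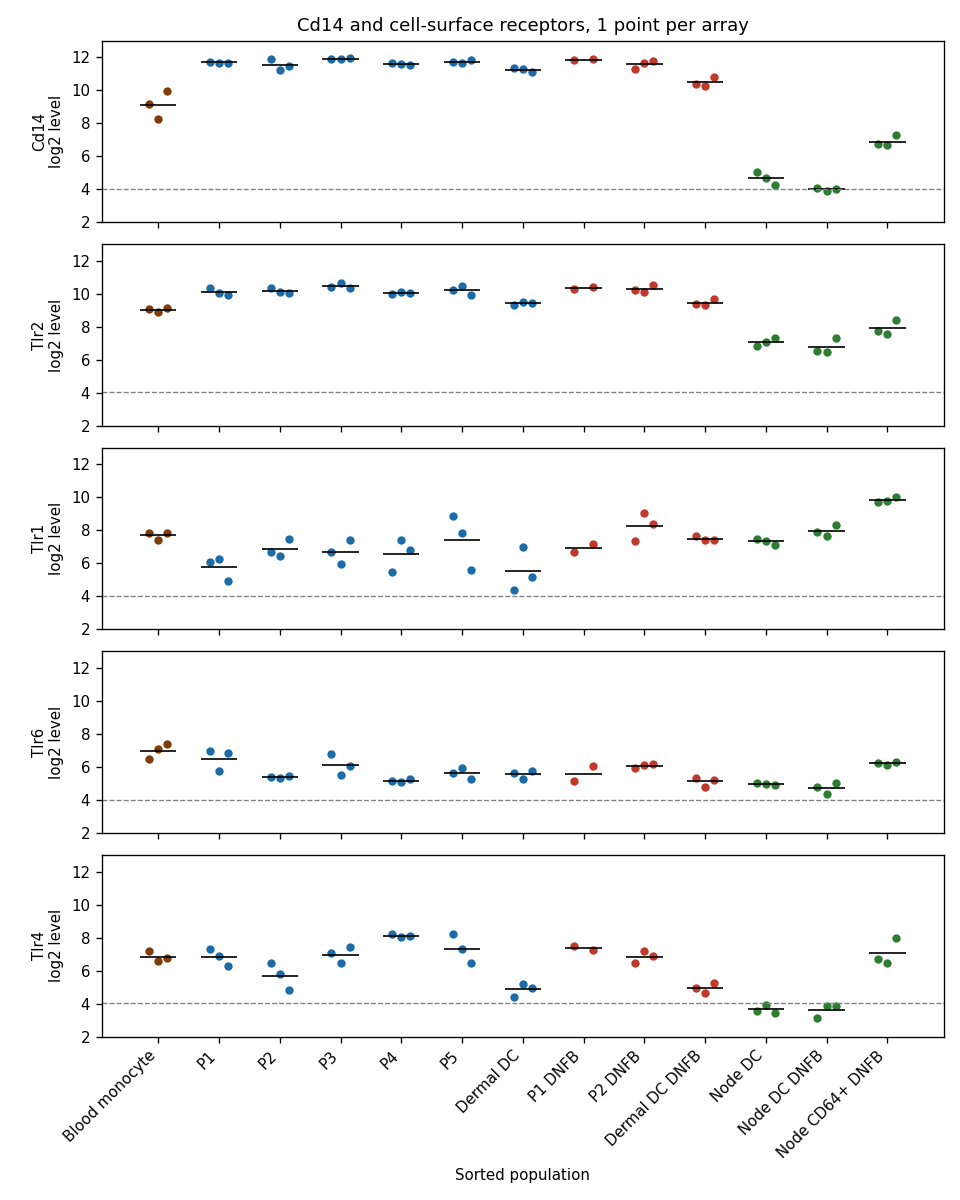
Log2 level (vertical axis) of Cd14, Tlr2, Tlr1, Tlr6 and Tlr4 in each array (points) of the 13 sorted populations (horizontal axis), with the population mean as a black line and the level 4.02 as a dashed line. Brown is blood, blue steady-state dermis, red dermis after DNFB and green lymph node. Cd14 lies between 10.27 and 11.95 in every dermal array and between 3.90 and 5.06 in node DC.

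Tlr2, the receptor that pairs with Tlr1 and Tlr6, had the same order of tissues as Cd14. The 20 arrays of dermal P1 to P5, treated or not, lay between 9.92 and 10.66, the 6 dermal DC arrays between 9.30 and 9.67, and the blood monocytes at 9.05, 8.90 and 9.15. The node CD64+ cells measured 7.76, 7.53 and 8.42, and node DC 6.46 to 7.32. These 5 sets of arrays did not overlap. Across the 7 dermal populations other than DC the means differed by less than the pooled SD between neighbours, apart from P3 at 10.48 above P1 after DNFB at 10.35, whose arrays overlapped.

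Tlr1 and Tlr6, the partners of Tlr2, did not share its pattern or each other's. Tlr1 was highest in the node CD64+ cells, at 9.73, 9.79 and 10.02, above each of the other 35 arrays. It was lowest in steady-state dermal DC, where the arrays measured 4.40, 6.97 and 5.20 and so covered much of the gene's range. P5 was as uneven, at 8.87, 7.86 and 5.59. The node DC arrays lay close together, between 7.14 and 8.30. Most neighbours in the order of Tlr1 means could not be separated, with 3 of 12 gaps above the pooled SD.
Tlr6 was highest in blood monocytes, at 6.50, 7.09 and 7.37, and lowest in node DC, at 4.34 to 5.03. Its dermal arrays ranged from 4.81 to 6.95 and overlapped with both. P1, at 6.95, 5.75 and 6.83, lay above P4, at 5.14, 5.11 and 5.25, with no overlap. For Tlr6, 2 of 12 gaps between neighbouring means were above the pooled SD, those between P2 after DNFB and P5 and between P2 and P4.

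Tlr4, the lipopolysaccharide receptor, was highest in the MHCII-negative macrophages P4, at 8.21, 8.03 and 8.07. Steady-state dermal DC measured 4.41, 5.21 and 4.95 and dermal DC after DNFB 4.91, 4.62 and 5.27, while all 6 node DC arrays, at 3.11 to 3.92, were under the level of low signal. The node CD64+ cells, at 6.70, 6.48 and 7.98, lay within the range of the other dermal populations and blood, 4.80 to 8.21. P5 was more variable than P4, at 8.21, 7.29 and 6.45. The means of P1 after DNFB, P5, node CD64+ cells, P3, P2 after DNFB, blood and P1 followed each other without a gap above the pooled SD.

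Among the endosomal receptors, Tlr7, which binds single-stranded RNA, spanned 6.30 between population means and Tlr13, which binds bacterial ribosomal RNA, spanned 5.29. Tlr7 measured 9.68, 9.45 and 9.14 in blood monocytes and 9.36, 9.06 and 8.77 in P4, and the 20 dermal arrays other than DC lay between 6.27 and 9.36. Dermal DC lay below that range, at 5.52, 4.95 and 4.50 at steady state and 3.87, 4.24 and 4.27 after DNFB. Node DC were lower still, at 2.81 to 3.61, whereas node CD64+ cells measured 7.03, 6.94 and 7.72. In the order of Tlr7 means, P2 after DNFB and steady-state dermal DC were neighbours with a gap of 2.12 and no overlap.

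Tlr8, a relative of Tlr7 encoded next to it, was also highest in blood, at 7.78, 7.59 and 7.50, above every other array. Its dermal arrays ranged from 3.82 to 7.40 and those of node DC from 2.83 to 3.41, all under the level of low signal. Unlike Tlr7, the arrays of steady-state dermal DC, at 4.87, 6.11 and 5.40, overlapped with those of P1 and P2. Across the 13 population means Tlr7 and Tlr8 correlated at 0.94, Tlr4 and Tlr7 at 0.93 and Tlr4 and Tlr8 at 0.87. These coefficients describe 13 points, of which the lowest are DC populations.

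Tlr13 was highest in blood monocytes, at 10.81, 10.50 and 10.36, and next in P1, at 9.83, 9.28 and 9.46. It was lower in P2, at 7.70, 7.11 and 6.06, and in P3, at 7.77, 7.49 and 7.23, and higher again in P4, at 8.63, 8.62 and 8.32, and P5, at 8.64, 9.19 and 8.33. The macrophages P4 and P5 thus lay between P1 and P3, with no overlap with either. Steady-state dermal DC measured 6.60, 5.73 and 3.46, an uneven set in which array 3 lay under the level of low signal. In contrast to Tlr7 and Tlr8, Tlr13 stayed well measured in node DC, at 6.40 to 7.79, and was 8.55, 8.68 and 9.38 in the node CD64+ cells.

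Tlr9, the receptor for unmethylated CpG DNA, varied less than the other genes apart from Tlr3, though its span was above the median gene's 0.70. Blood monocytes measured 9.49, 9.76 and 9.51 and the other 35 arrays lay between 8.37 and 9.59, a span of population means of 1.01. Only the gap between blood and the node CD64+ cells, of 12 gaps, was above the pooled SD, and their arrays overlapped. Tlr3, the receptor for double-stranded RNA, lay between 3.18 and 4.99 in all arrays, with 25 of 38 arrays and 8 of 13 population means under the level of low signal, so its order of populations is not interpretable.

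**Figure D2:**
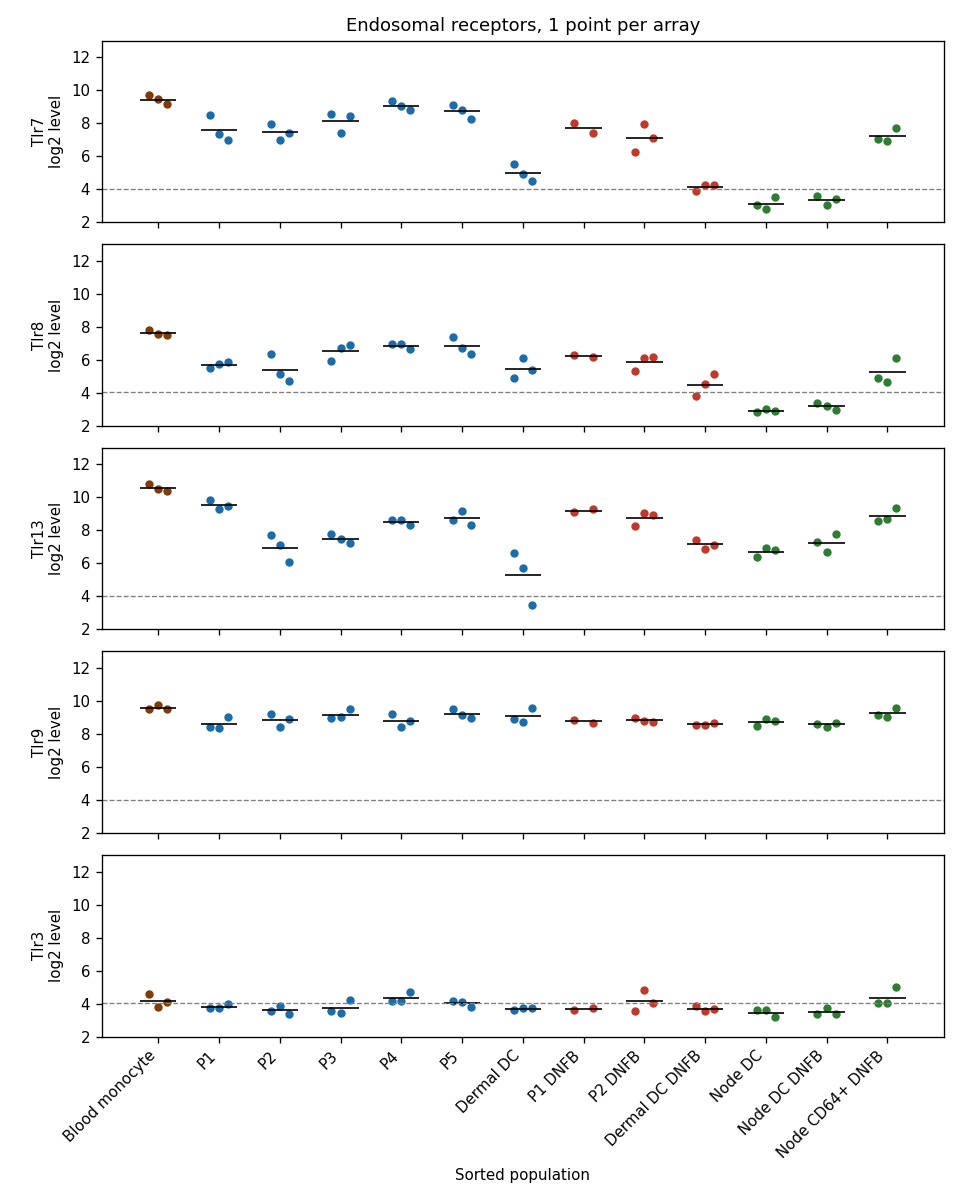
Log2 level (vertical axis) of Tlr7, Tlr8, Tlr13, Tlr9 and Tlr3 in each array (points) of the 13 sorted populations (horizontal axis), with means, the dashed line at 4.02 and colours by tissue and treatment (brown blood, blue steady-state dermis, red dermis after DNFB, green node). Tlr7 lies at 2.81 to 3.61 in node DC and at 6.94 to 7.72 in the node CD64+ cells, while Tlr9 stays between 8.37 and 9.76 throughout.

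P1 cells share the Ly6Chigh gate with blood monocytes, and the comparison between them asks how the receptor genes differ between blood and dermis. Cd14 and Tlr2 rose and Tlr1, Tlr7, Tlr8 and Tlr9 fell, 6 of 10 genes, where 12.6% of all genes passed the test in either direction. The median difference of the 10 genes was -0.72, against 0.01 over all genes. Cd14 rose 5.91-fold from blood to P1 (2.56, SE 0.257, adjusted p = 2.48e-08) and Tlr2 2.08-fold higher (1.05, SE 0.198, adjusted p = 0.000431). Of the genes that fell, Tlr1 had a difference of -1.95 (SE 0.616, adjusted p = 0.0338), Tlr8 of -1.92 (SE 0.385, adjusted p = 0.000888), Tlr7 of -1.83 (SE 0.385, adjusted p = 0.00148) and Tlr9 of -0.97 (SE 0.227, adjusted p = 0.00398). Arrays did not overlap for any of these 6 genes, nor for Tlr13, whose difference of -1.03 (SE 0.470) had an adjusted p of 0.172, which makes 7 of 10 against 25.3% of all genes. Tlr4 measured 6.81 in P1 and 6.83 in blood.
Keratinocyte and fibroblast genes moved with this comparison, and 8 of 10 and 9 of 10 of them rose. With the means of both lists as covariates, Cd14 alone kept its call, Tlr7 had a difference of -0.29, Tlr1 of -0.82 and Tlr8 of -1.22, and Tlr2, at 1.62, had an adjusted p of 0.0605. Both list means were at most 4.51 in blood and at least 6.96 in P1, so population and marker level are hard to separate in that fit. Tlr1 also lost its call without any 1 of the 3 blood arrays (adjusted p 0.0600 to 0.0982) and without P1 array 3, the lowest, where its difference was -1.53.

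Around the receptors, 11 of 17 genes that TLR signalling is known to induce rose and 0 fell, with a median difference of 1.97, among them Il6 (5.47) and Il10 (4.45), cytokines with opposite effects on inflammation, and Cxcl1 (2.98), a chemokine for neutrophils. Il6 and Il10 had low signal in blood. Beside the counts of these lists, 5.21% of all genes rose and 7.43% fell. Of 13 negative regulators 6 rose and 1 fell (median 0.11), led by Socs3 (3.26) and Tnip3 (3.54), feedback inhibitors of cytokine and NF-kB signalling. Of 16 accessory genes 2 rose and 5 fell (median -0.26), such as Cd180 (-1.28), a relative of Tlr4 without a signalling domain, and Slc15a4 (-1.07), an endosomal transporter that Tlr7 and Tlr9 signalling needs. Of 17 signalling genes 1 rose and 5 fell (median -0.41), with Btk (-1.90), a kinase downstream of several receptors, among the lower ones. Of 10 cytosolic sensors of nucleic acid or cell wall fragments 0 rose and 6 fell (median -1.35), led by Dhx58 (-2.23) and Ddx58 (-2.12), the RNA helicases LGP2 and RIG-I. The part of tissue RNA in these counts was not tested beyond the covariate fit of the receptors, and that of cell preparation was not tested.

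Between P1 and P2, which differ in the gate by CD64 and MHCII, 2 of the 10 genes fell and 0 rose, against 2.09% of all genes in either direction. Tlr13 was 5.94-fold lower in P2 (-2.57, SE 0.470, adjusted p = 0.00143), the 9th lowest difference of all 19937 genes, and Tlr6 was 2.14-fold lower (-1.09, SE 0.284, adjusted p = 0.0358). The arrays of both did not overlap, and 3 of 10 genes were free of overlap, against 11.3% of all genes. Fitted on P1 and P2 alone, Tlr13 had an adjusted p of 0.0915 and Tlr6 of 0.400. Tlr6 also had no call without any 1 array other than P1 array 2, nor with array medians centred. Cd14 and Tlr2 differed by -0.17 and 0.06. From P2 to P3, which differ in Ly6C, 0 of 10 passed, against 0.371% of all genes. The largest differences were Tlr4 (1.28, SE 0.403, adjusted p = 0.197) and Tlr8 (1.11, SE 0.385, adjusted p = 0.274), and 3 of the 10 had an unadjusted p under 0.05. In the pathway lists, Tnip3 (1.68) and Il10 (1.43) rose from P1 to P2 and Il1a (2.03) from P2 to P3, and Zbp1 (-1.29) and Nod1 (-1.61), cytosolic sensors of nucleic acid and of peptidoglycan fragments, fell from P1 to P2.

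Dermal DC and P3 share MHCII and differ in the gate by CD64, though not by that marker alone, as the DC labels also name CD24. Between them 4 of 10 genes fell and 0 rose, against 1.80% of all genes in either direction. Their median difference was -1.05, against 0.01 over all genes. Tlr7 had a difference of -3.14 (SE 0.385, adjusted p = 8.56e-06), the 4th lowest of all genes and 8.83-fold. Tlr4 was 4.33-fold lower in DC (-2.11, SE 0.403, adjusted p = 0.0022), Tlr13 4.69-fold lower (-2.23, SE 0.470, adjusted p = 0.00627) and Tlr2 2.09-fold lower (-1.06, SE 0.198, adjusted p = 0.0017). Arrays did not overlap for 5 of 10 genes, these 4 and Cd14, against 14.0% of all genes. Without DC array 3 the Tlr13 difference was -1.33 and its adjusted p 0.0726 (without array 1 it was -2.90, with its call), and fitted on these populations alone neither Tlr4 (adjusted p = 0.0553) nor Tlr13 (adjusted p = 0.380) passed. Cd14, also without overlap, differed by -0.67 (SE 0.257, adjusted p = 0.259), and Tlr9 by -0.09. Of the pathway, 5 of 16 accessory genes fell and 0 rose (median -0.19), among them Lgmn (-1.90), Ctsl (-2.12) and Ctsb (-0.84), lysosomal proteases that process endosomal receptors, and Cd36 (-2.16), a scavenger receptor that presents ligands to Tlr2. Of the 17 induced genes 8 fell and 0 rose (median -1.13), led by Il10 (-2.42) and Ifnb1 (-3.27). Of 7 macrophage markers 5 fell and 0 rose, such as Fcgr1 (-2.76), which encodes the sort marker CD64, and C1qa (-2.63), and their part was not tested.

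The MHCII+ macrophages P5 against dermal DC gave 5 of 10 genes higher and 0 lower, against 6.52% of all genes in either direction, and a median of 1.07 against -0.02 over all genes. Tlr7 was 13.3-fold higher in P5 (3.73, SE 0.385, adjusted p = 8.82e-08), Tlr13 11.0-fold (3.46, SE 0.470, adjusted p = 7.47e-06) and Tlr4 5.52-fold (2.46, SE 0.403, adjusted p = 0.000107). Tlr8 (1.35, SE 0.385, adjusted p = 0.0287) and Tlr2 (0.78, SE 0.198, adjusted p = 0.0113) were also higher. Arrays did not overlap for 7 of 10 genes, against 19.0% of all genes. These were the 5 called genes, Cd14 at 0.49 (SE 0.257, adjusted p = 0.378) and Tlr3, which had low signal in dermal DC. Tlr1 differed by 1.92 (SE 0.616, adjusted p = 0.0598) with overlapping arrays. Tlr8 lost its call without P5 array 1 or 2 or DC array 1 or 3, and Tlr2 without P5 array 2 or DC array 1. Tlr13 kept its call without DC array 3, its lowest, but the difference was then 2.55, or 5.88-fold, and it was 4.12 without DC array 1. Tlr1 gained one without P5 array 3 (2.84) or DC array 2 (2.64) or with low values left out. Fitted on these populations alone, Tlr2, Tlr8 and Tlr13 did not pass. This comparison and that of DC with P3 share the DC arrays. Accessory genes stood higher in P5 for 5 of 16 and lower for 0 (median 0.34), led by Lgmn (2.34), Ctsb (1.41), Ctsl (3.05) and Cd36 (3.39), and 7 of 17 induced genes stood higher and 0 lower (median 0.96). All 7 macrophage markers were higher in P5, and their part was not tested.

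Between the macrophages P5 and P4, which differ by MHCII, 0 of 10 genes passed, against 0.492% of all genes, and between P5 and P3 0 of 10 passed, against 1.25%. For P5 minus P4 the largest difference was that of Tlr1 (0.87, SE 0.616) and the largest negative one that of Tlr4 (-0.78, SE 0.403, adjusted p = 0.709). For P5 minus P3 it was Tlr13 (1.22, SE 0.470, adjusted p = 0.316), whose arrays did not overlap. In that comparison 2 of 10 genes were free of overlap, against 11.9% of all genes. An unadjusted p under 0.05 was found for 0 of the 10 genes between P5 and P4 and for 1 between P5 and P3.

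**Figure D3:**
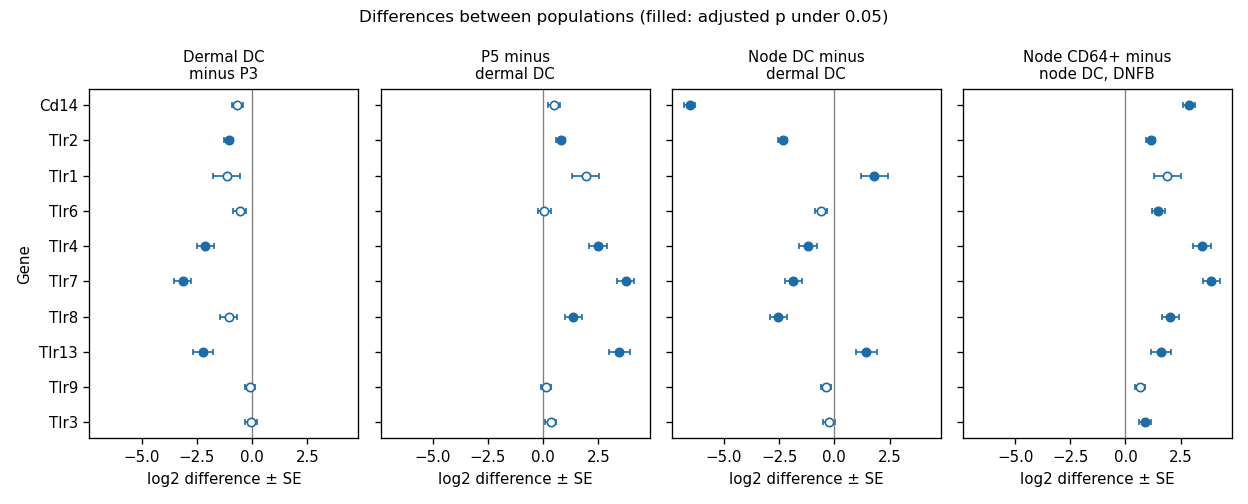
Log2 difference with its standard error (horizontal axis) for each of the 10 genes (vertical axis) in 4 comparisons of populations, dermal DC minus P3, P5 minus dermal DC, node DC minus dermal DC at steady state, and node CD64+ cells minus node DC after DNFB. Filled points have an adjusted p under 0.05. Cd14 reaches -6.56 between node and dermal DC, and in the node CD64+ cells all 10 points lie above 0, 8 of them filled.

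Node DC and dermal DC carry the same surface labels for CD11b, CD24, Ly6C and CD64, and the node gate also required CD11c and high MHCII. Comparing them sets DC in the node against DC in the skin. At steady state 5 of 10 genes fell and 2 rose, where 20.3% of all genes passed in either direction and 10.1% fell. The median difference was -0.91, against 0.05 over all genes. Cd14 was 94.5-fold lower in node DC (-6.56, SE 0.257, adjusted p = 9.13e-18), the 4th lowest difference of all genes, from 11.36, 11.25 and 11.11 in dermal to 5.06, 4.70 and 4.27 in node DC. Tlr2 was 5.09-fold lower (-2.35, SE 0.198, adjusted p = 1.58e-10), from 9.30, 9.51 and 9.44 to 6.82, 7.07 and 7.32. Neither gene's arrays overlapped, and 7 of 10 genes were free of overlap, against 35.7% of all genes. Tlr8 (-2.55, SE 0.385, adjusted p = 7.28e-06), Tlr7 (-1.86, SE 0.385, adjusted p = 0.000513) and Tlr4 (-1.21, SE 0.403, adjusted p = 0.0309) fell to low signal in node DC.
Tlr1 (1.81, SE 0.616, adjusted p = 0.0349) and Tlr13 (1.44, SE 0.470, adjusted p = 0.0268) rose. Both calls depended on single arrays of either site. Without dermal DC array 3 Tlr13 differed by 0.54 (adjusted p = 0.388) and without dermal DC array 1 or 3 Tlr1 differed by 1.25 (adjusted p = 0.231) or 1.65 (adjusted p = 0.112). Without node DC array 2 or 3 Tlr13 also had no call, and Tlr1 had none without any 1 node DC array (adjusted p 0.0620 to 0.0945). Without dermal DC array 2 the Tlr1 difference was 2.53 and without array 1 that of Tlr13 was 2.11, both with their calls. Tlr4 had no call without dermal DC array 2 or 3 or node DC array 1 or 3. Tlr9 (-0.38) and Tlr6 (-0.60) did not pass, though Tlr6 did when these populations were fitted alone (adjusted p = 0.0292). In that fit neither Tlr1 (adjusted p = 0.0840) nor Tlr13 (adjusted p = 0.249) passed.

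After DNFB the same pair of sites gave 4 genes lower in node DC and 0 higher, against 17.5% of all genes, and a median of -0.58 against 0.04 over all genes. Cd14 fell to low signal, from a mean of 10.48 to 4.00 (-6.48, SE 0.257, adjusted p = 2.06e-17), so the size of its fall is not exact, and Tlr2 was 6.44-fold lower (-2.69, SE 0.198, adjusted p = 1.16e-11). Tlr4 (-1.35, SE 0.403, adjusted p = 0.017) and Tlr8 (-1.30, SE 0.385, adjusted p = 0.0159) fell to low signal. Without dermal DC array 3 after DNFB neither of them passed, and Tlr4 had no call without node DC array 1 and Tlr8 none without node DC array 3. Tlr13 averaged 7.15 in dermal and 7.26 in node DC (0.11, SE 0.470, adjusted p = 0.941). Tlr7 differed by -0.77 (SE 0.385, adjusted p = 0.206), and passed with the keratinocyte and fibroblast means as covariates (-1.34, adjusted p = 0.0284) or with these populations fitted alone (adjusted p = 0.0159). With the covariates the Tlr4 difference was -1.97.

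Of the genes that work with the receptors, some fell in node DC, a few rose and the others did not pass. Over all genes 10.1% rose and 10.1% fell at steady state, and 8.44% rose and 9.04% fell after DNFB. At steady state 8 of 16 accessory genes fell and 1 rose (median -0.78), led by Cd180 (-4.18), Nrros (-2.56), a leucine-rich repeat protein related to the receptors, Unc93b1 (-1.62), the transporter of endosomal receptors, and Ly86 (-1.83), the partner of Cd180. Of 17 signalling genes 7 fell and 1 rose (median -0.50), of 13 negative regulators 4 fell and 2 rose (median -0.19), and among the signalling genes Pik3ap1 (-3.12), an adaptor to phosphoinositide kinase, and Irak2 (-2.01), a kinase-like signal protein, were among those lower. Of the 17 induced genes 11 fell and 2 rose (median -1.90), with Cxcl2 (-6.14), Il1b (-5.06) and Il10 (-4.16) lower. Of 10 cytosolic sensors 4 rose and 0 fell (median 0.64), with Zbp1 at 1.33 and Ifih1, the RNA helicase MDA5, at 1.20. After DNFB 8 accessory genes fell and 1 rose, 6 signalling genes fell and 0 rose, and 8 induced genes fell and 2 rose.
Skin and node were digested with different enzymes and enriched on different gradients, per the labels, so site and preparation cannot be told apart. Of 10 keratinocyte genes 8 were lower in node DC and 0 higher at steady state, and of 7 macrophage markers 6 were lower, led by Csf1r (-4.95), the receptor of the macrophage growth factor. With the keratinocyte and fibroblast means as covariates the differences of Cd14, Tlr2, Tlr7 and Tlr8 at steady state kept their calls, as did that of Tlr4, which became -2.37 beside -2.92 for Tlr7 and -3.45 for Tlr8. In that fit Tlr1 (0.74) and Tlr13 (0.70) lost their calls and Tlr6 (-1.35, adjusted p = 0.0142) gained one. The part of macrophage genes in dermal DC was not tested.

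In the node after DNFB, CD64+ cells had more RNA of most receptor genes than the CD64-negative DC beside them. Of the 10 genes 8 rose and 0 fell, where 4.82% of all genes passed in either direction and 3.82% rose, and the arrays of all 10 did not overlap, as those of 21.6% of all genes did not. Their median difference was 1.76, against -0.07 over all genes. Tlr7 was higher by 3.88 (SE 0.385, adjusted p = 1.54e-08), Tlr4 by 3.47 (SE 0.403, adjusted p = 3.03e-07), Cd14 by 2.88 (SE 0.257, adjusted p = 2e-09) and Tlr8 by 2.04 (SE 0.385, adjusted p = 0.000641), each from a mean under 4.02 in node DC. Tlr13 (1.61, SE 0.470, adjusted p = 0.0412), Tlr6 (1.49, SE 0.284, adjusted p = 0.000716) and Tlr2 (1.14, SE 0.198, adjusted p = 0.000211) were higher from well-measured levels.
Tlr3 passed narrowly (0.88, SE 0.262, adjusted p = 0.0482) at low signal, and with the replicate number as a block its adjusted p was 0.0591. Tlr1 (1.90, SE 0.616, adjusted p = 0.0800) and Tlr9 (0.67, SE 0.227, adjusted p = 0.104) did not pass. Tlr13 had no call without any 1 array except node DC array 3, and Tlr3 none without any 1 node DC array or CD64+ array 3. Fitted on these 2 groups alone, Tlr1 passed and Tlr2 and Tlr3 did not, and with the covariates Tlr3 (adjusted p = 0.0725) and Tlr13 (adjusted p = 0.0540) did not.
Tlr12, an endosomal receptor for a protozoan protein and not among the 10 genes, was at or under 4.13 in each blood and dermal array, 5.02 ± 0.06 (SD, n = 3) in node DC after DNFB, and 6.50, 7.27 and 7.39 in the node CD64+ cells, a difference of 2.03 (SE 0.190, adjusted p = 5.05e-09). Of 16 accessory genes 9 rose and 0 fell (median 0.70), led by Cd180 (3.70), Unc93b1 (1.92), Ctsb (1.79) and Nrros (1.86). Of 17 signalling genes 2 rose and 0 fell (median 0.02), Pik3ap1 (3.22) and Irf7 (3.84), the interferon regulator downstream of Tlr7 and Tlr9. Ccl3 (3.39) and Cxcl10 (2.81) rose among the induced genes, of which 5 of 17 rose and 0 fell (median 0.51). All 7 macrophage markers rose too, led by Csf1r (4.64), as did 4 of 6 monocyte markers and 2 of 7 plasmacytoid DC markers, a cell type known for Tlr7 and Tlr9, and their part in the receptor levels was not tested. The B cell list stayed between 4.52 and 4.75 in the CD64+ cells and between 4.19 and 4.45 in node DC.

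Against dermal P2 after DNFB, a Ly6Chigh CD64+ population of the skin, the node CD64+ cells were lower in Cd14 and Tlr2, and the other 8 of the 10 genes did not pass the test. Tlr12, which is not one of the 10, was higher by 3.37 (SE 0.190, adjusted p = 1.03e-13), from low signal in P2. Of the 10 genes 2 fell and 0 rose, against 12.6% of all genes in either direction. Cd14 was 25.9-fold lower (-4.70, SE 0.257, adjusted p = 4.86e-14), from 11.30, 11.67 and 11.76 to 6.72, 6.65 and 7.27, and Tlr2 5.20-fold lower (-2.38, SE 0.198, adjusted p = 3.08e-10). Both were free of overlap, and 4 of 10 genes were, against 27.5% of all genes. Tlr7 differed by 0.13 (SE 0.385), Tlr13 by 0.10 (SE 0.470), Tlr4 by 0.21 (SE 0.403) and Tlr6 by 0.13 (SE 0.284), and Tlr1 by 1.59 (SE 0.616, adjusted p = 0.0993) without overlap. Of the 17 induced genes 11 fell and 4 rose (median -1.71), with Il10 (-5.66) and Cxcl2 (-4.81) lower and Cd40 (2.59), a costimulatory receptor, higher. Of 10 cytosolic sensors 4 rose and 0 fell (median 0.48). Keratinocyte genes (for example Krt5, -4.73) and fibroblast genes (Dcn, -4.31) were lower in the node cells. Enzymes and gradients differed between skin and node, so site and preparation cannot be told apart in this comparison either.

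**Figure D4:**
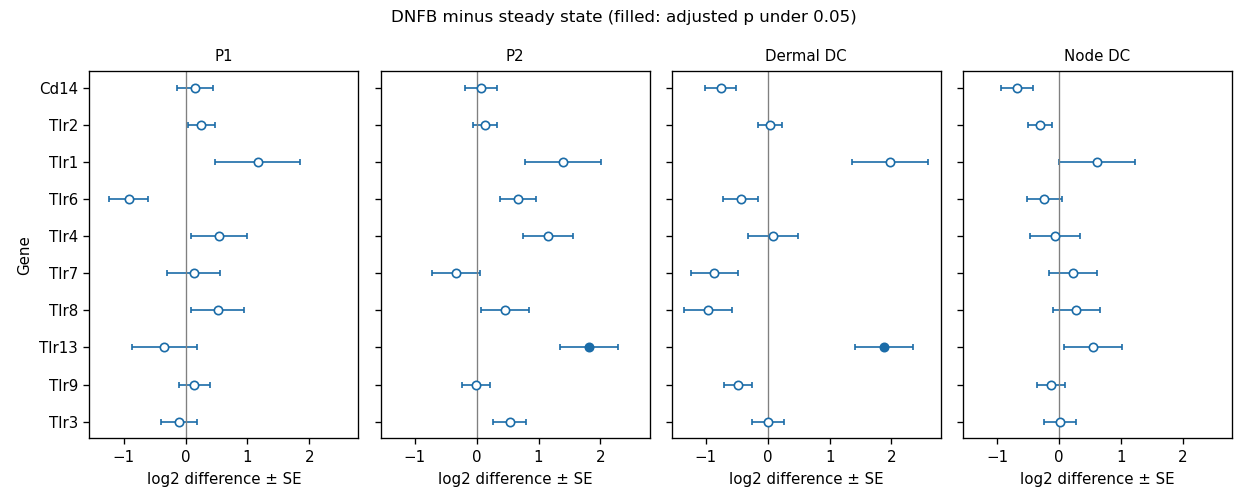
Log2 difference, DNFB minus steady state, with its standard error (horizontal axis) for each of the 10 genes (vertical axis) in P1, P2, dermal DC and node DC. Filled points have an adjusted p under 0.05, and these are Tlr13 in P2 (1.81) and in dermal DC (1.88) only.

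After DNFB 1 of the 10 genes, Tlr13, passed the test, in 2 of 4 populations. The labels mention no vehicle for the untreated mice, so DNFB and its vehicle cannot be told apart. In P2 Tlr13 went from 7.70, 7.11 and 6.06 to 8.27, 9.07 and 8.96, a 3.51-fold rise (1.81, SE 0.470, adjusted p = 0.0356), where 2.02% of all genes passed in either direction. In dermal DC it went from 6.60, 5.73 and 3.46 to 7.44, 6.90 and 7.10, a 3.68-fold rise (1.88, SE 0.470, adjusted p = 0.0155), where 4.16% of all genes passed. Neither pair of groups overlapped for Tlr13. Arrays did not overlap for 3 of 10 genes in P2 and 5 of 10 in dermal DC, against 14.2% and 21.7% of all genes. Both calls were lost without single arrays: in dermal DC the difference was 0.98 (adjusted p = 0.192) without steady-state array 3 (2.55 without array 1) and had an adjusted p of 0.0896 without DNFB array 1, and in P2 the call was lost without steady-state array 2 or 3 or DNFB array 2 or 3, with the difference then between 1.36 and 1.89. Krt15, a keratinocyte keratin, fell in both populations (-2.05 in P2 and -1.81 in dermal DC), as did Sparc, a matrix gene of fibroblasts (-1.63 and -2.16). Monocyte markers moved too: 2 of 6 rose in P2, Vcan (1.71) and Hp (1.30), with a list mean of 9.21 before and 10.11 after DNFB, and in dermal DC Plac8 (4.78) and Vcan (2.22) rose and F13a1 (-1.65) fell, with a list mean of 6.06 and 6.86. In dermal DC 2 of 6 T cell markers rose, Cd3d (1.94) and Cd3g (1.24). The part of these cells in the Tlr13 level was not tested. With the keratinocyte and fibroblast means as covariates, the difference of Tlr13 was 1.33 in P2 (adjusted p = 0.458) and 1.52 in dermal DC (adjusted p = 0.135). With only the compared groups fitted, Tlr13 passed in neither P2 (adjusted p = 0.175) nor dermal DC (adjusted p = 0.232).
In P1 0 of 10 passed, against 0.637% of all genes, and Tlr13 differed by -0.34 (SE 0.526). With 2 arrays after DNFB, simulated data of this comparison gave calls for 55 of 100 genes changed 2-fold and 93 of 100 changed 4-fold. The changed genes were drawn at random from all genes, each with its own spread, so these rates need not hold for the 10 genes. In node DC 0 of 10 passed, against 1.34%, and Tlr13 differed by 0.55 (SE 0.470). An unadjusted p under 0.05 was found for 1 gene in P1 (Tlr6), 4 in P2, 6 in dermal DC and 1 in node DC (Cd14). The difference between the effects in P2 and P1 was 2.15 for Tlr13 (SE 0.705, adjusted p = 0.521) and 1.59 for Tlr6 (SE 0.427, adjusted p = 0.306). For 0 of the 10 genes did the effects differ past the test between P2 and P1 (0.0552% of all genes did), dermal DC and P2 (0.251%) or node DC and dermal DC (1.31%), and 2, 3 and 1 of the 10 genes had an unadjusted p under 0.05.

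Other receptor differences after DNFB did not pass. In dermal DC Tlr1 was higher by 1.98 (SE 0.616, adjusted p = 0.0670) and Cd14 lower by a difference of -0.76 (SE 0.257, adjusted p = 0.102), both without overlap, and Tlr8 (-0.97, SE 0.385, adjusted p = 0.199), Tlr7 (-0.86, SE 0.385, adjusted p = 0.289, without overlap) and Tlr9 (-0.48, SE 0.227, adjusted p = 0.330, without overlap) did not pass either. With Tlr13, 5 of 10 genes had no overlap in dermal DC, against 21.7% of all genes. Tlr1 passed without steady-state array 2, at 2.70, or with low values left out. In P2 Tlr4 differed by 1.15 (SE 0.403, adjusted p = 0.170), Tlr1 by 1.39 (SE 0.616, adjusted p = 0.345) and Tlr6 by 0.67 (SE 0.284, adjusted p = 0.317). In P1 Tlr6 differed by -0.92 (SE 0.318, adjusted p = 0.230), and by -1.30 with a call without steady-state array 2. Tlr2 differed by 0.26, 0.13, 0.04 and -0.30 in P1, P2, dermal DC and node DC. Of the pathway, Irf7 rose in P2 (1.89) and dermal DC (3.13), and the cytosolic sensor Dhx58 in P1 (1.58), P2 (1.92) and dermal DC (2.45). In dermal DC 0 of 17 induced genes rose and 3 fell, Cxcl1 (-1.56), Il1a (-1.64) and Il6 (-1.99), where 2.11% of all genes rose and 2.06% fell. In node DC Cxcl10 (2.72) and Il1b (1.67) rose.

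For each of the 10 genes the other genes with the most similar population means were found among those whose means span at least 1. Tlr2 was nearest to Cd14 (r = 0.989 over 13 means), and Cd14 to Trib1 (0.989), which encodes a pseudokinase, and to Tlr2. Tlr7 was nearest to Aoah (0.979), an enzyme that inactivates lipopolysaccharide, and Dennd1a (0.972). Tlr4 was nearest to Cln3 (0.960) and Ctsb (0.959), both lysosomal, and Tlr8 to Hacd4 (0.963) and Arhgap17 (0.960). The nearest genes were less close for Tlr13 (Fyb at 0.918 and Glb1 at 0.917), Tlr1 (Dpy19l4 at 0.906 and Ifih1 at 0.878) and Tlr6 (Vps13c and Pilrb2, both at 0.873). For Tlr9 they were Cpox (0.930) and Tmem68 (0.891), and for Tlr3, at low signal, Mtr (0.927) and Bank1 (0.890). Among the 10 genes themselves Tlr1 and Cd14 correlated at -0.50 and the neighbouring genes Tlr1 and Tlr6 at 0.08. The points share treatment, tissue and marker levels, and the highest of many coefficients is high by selection, so these are descriptions only.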

How the data were processed

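Levels of 10 genes were compared over 38 arrays in 13 sorted populations. The deposited values are log2 levels, 1 for each probe set, and the submitters' processing notes name RMA and the affy package. Versions and the annotation build are not given in the sources used here. Total RNA of 5000 to 10000 cells per array, 5 to 20 ng, was amplified before hybridisation, per the labels' protocols, and the number of arrays limits the precision. Hybridisation used 3 chip batches whose membership the sources used here do not give, so no batch term could be fitted.

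Of 34760 probe sets, 21640 have 1 gene symbol, 1321 have several and 11799 have none in the platform annotation. The 21640 with 1 symbol gave 19937 genes, of which 954 had several probe sets and the one with the highest mean was kept. A model with 1 mean per population was fitted in limma 3.58.1 (R 4.3.3, with the R package data.table, version 1.17.8), with 25 residual and 3.13 prior degrees of freedom, 18 contrasts and Benjamini-Hochberg adjustment over 19937 genes at a threshold of 0.05. The p-values rest on a spread pooled over all 13 populations. The method was tested on simulated data. Promoters are from RefSeq, GRCm38.p6. Plots were made in Python 3.11.15 with pandas 2.3.3 and matplotlib 3.10.9.

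The members and gene lists were chosen with earlier results of these data known. Named genes are the 10 members, up to 4 called genes per pathway or marker list by smallest adjusted p, and the 2 genes nearest to each member by correlation. The alternatives tried were a replicate block, a random block for the number in the source name, quantile normalization, centred medians, low values left out, averaged probe sets, limma's trend and robust options, keratinocyte and fibroblast means as covariates, only the compared groups, and leaving out each array.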

Additional observations from a re-analysis of the deposited data

How the results depend on the processing

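Of 40 calls of the 10 genes, 18 held under every setting and every left-out array, 19 were lost in at least 1 other setting and 14 in at least 1 fit without 1 array, and 0 reversed. An uncalled difference carries no direction, and of the 140 uncalled results 7 gained a call in another setting and 5 in a fit without 1 array. The calls that held were the 5 of Cd14, the 4 of Tlr2 for dermal DC against P3, both node against dermal DC comparisons and node CD64+ cells against P2, the 4 of Tlr7 other than P1 against blood, those of Tlr4 for P5 against dermal DC and for the node CD64+ cells, those of Tlr8 for node against dermal DC at steady state and for the node CD64+ cells, and that of Tlr6 for the node CD64+ cells.
With the keratinocyte and fibroblast covariates the number of genes called became 1 for P1 against blood (6 without them), 0 for DNFB in P2 (1) and 0 for DNFB in dermal DC (1), and moved by less for node against dermal DC at steady state (6, from 7) and after DNFB (5, from 4) and for node CD64+ cells against node DC (6, from 8). With only the compared groups fitted it became 0 for P2 against P1 (2), 2 for dermal DC against P3 (4), 2 for P5 against dermal DC (5), and 0 for DNFB in P2 and in dermal DC, and moved by 1 for P1 against blood (7), both node against dermal DC comparisons (6 and 5) and both comparisons of node CD64+ cells (7 against node DC, 3 against P2). With array medians centred it became 1 for P2 against P1, and with low values left out 2 for DNFB in dermal DC. Over all genes the covariates took calls from 2520 to 265 for P1 against blood and from 402 to 151 for DNFB in P2. For DNFB in dermal DC they went from 830 to 762. With only the compared groups fitted, they fell from 416 to 62 for P2 against P1 and to 80 for DNFB in P2. They also fell for dermal DC against P3 and for P5 against dermal DC. For DNFB in dermal DC, where Tlr13 lost its call, they rose from 830 to 885.
Leaving out 1 array at a time gave 5 to 6 calls for P1 against blood, 1 to 2 for P2 against P1, 0 to 1 for P3 against P2, 3 to 4 for dermal DC against P3, 3 to 6 for P5 against dermal DC, 0 to 1 for DNFB in P1, 0 to 1 for DNFB in P2, 0 to 2 for DNFB in dermal DC, 4 to 6 for node against dermal DC at steady state and 2 to 4 after DNFB, 6 to 7 for node CD64+ cells against node DC, and 0 to 1 for the difference of DNFB effects between P2 and P1. The cause of these changes was not tested, and the part of the smaller number of arrays was not tested either.
No pairing of samples by the replicate numbers of the titles was shown, though 2 or 3 arrays per population cannot exclude it. In 0 of 15 comparisons were all same-numbered pairs correlated over 0.1, and their correlations ran from -0.26 to 0.35. With the replicate number as a block 1 call was lost, that of Tlr3 between node CD64+ cells and node DC (adjusted p = 0.0591), and the counts of the other comparisons were the same. Centring moved the share of rising calls over all genes by over 10 percentage points only for the difference of DNFB effects between dermal DC and P2, from 52.0% to 39.0%.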
